A study of Mus musculus with 23 samples.

Results

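Retinal organoids that received docosahexaenoic acid (DHA) and FGF1 were compared at day 32 with organoids that received linoleic acid (LA) and FGF1. The libraries were taken by their labelled fatty acid, day and FGF1 state, which gave 2 DHA and 3 LA libraries, 5 of the 23 in the series. Both groups came from 1 clone of induced pluripotent stem cells, reprogrammed from fibroblasts of wild-type mouse embryos that carry an Nrl-GFP reporter. DHA or LA, bound to bovine serum albumin (BSA), was present at 26 µM from day 10, and FGF1 was present at 200 ng/ml from day 26. Both groups also received 9-cis retinal, taurine and insulin-like growth factor 1 until day 26, and from that day serum and B27 supplement without vitamin A were in the medium as well. RNA came from neural retina dissected from organoids, and the replicates are called biological. The labels give the number 12 in wording that is not clear, read here as 12 organoids for each sample. Values of BSA with FGF1 at day 32 (3 libraries), and of DHA and LA at day 26 before FGF1 (2 libraries each), stand beside the comparison.

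DHA is an omega-3 fatty acid that photoreceptors concentrate in the membranes of their outer segments. LA is an omega-6 fatty acid of shorter chain, which the body can also make into longer fatty acids. FGF1 acts through FGF receptors and the ERK kinases, and the cells answer with feedback genes such as Dusp6 and Spry2. In the retina, Otx2 and Crx set photoreceptor fate, Nrl and Nr2e3 direct rods, and the pigment cells, ciliary margin and optic stalk that arise from the same eye field carry other programmes.

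The DHA libraries held 18756175 and 16029580 counts, and the LA libraries held 16837485, 16330320 and 11017149. LA replicate 3 belonged to the shallower of the 2 library sets, with 11.7% of its counts from mitochondrial genes against 3.02% to 3.87% in the other 4 libraries, and the authors left it out of their normalized table. The differences are therefore given first with library set as a term over all 23 libraries (the set-term model), then for the 2 DHA and 2 LA libraries of the deeper set (the deeper-library model, fitted to the 12 deeper libraries). Only LA with FGF1 and BSA with FGF1 held libraries of both sets. The set effect could thus be told from group only through replicate 3 of each. Levels are given in CPM, read counts brought to a common library size and scaled by TMM. Of retinal markers, Crx stood at 1361 and 1295 CPM in DHA libraries and 971, 948 and 1188 CPM in LA libraries, and Pax6 between 323 and 559 CPM over the 5. Of defining markers of other tissues, Rpe65 (pigment epithelium) had no count in any of the 5 libraries, Cryaa (lens) reached at most 0.0516 CPM, Myod1 (muscle) at most 0.198 and Cdh5 (endothelium) at most 0.220. Other members of such lists were expressed, and the summed level over the 5 libraries was 211 to 352 CPM for endothelial genes, of which Kdr was 182 to 328, and 25.6 to 72.4 CPM for muscle genes. Genes of forebrain and other neural tissue summed to 21.6 and 14.6 CPM in DHA libraries and 208, 160 and 39.1 CPM in LA libraries. In BSA libraries with FGF1 they summed to 147, 19.9 and 29.7 CPM. Ttr, a member of this list with levels given below, made up most of the sum in the 2 deeper LA libraries. Of the 20 genes, 3 and 5 had no count in DHA libraries and 0, 2 and 2 in LA libraries. The median log2 difference of the list was −0.94 with the set term and −1.07 in the deeper libraries. The deeper median was −2.09 without DHA replicate 1 and −0.77 without DHA replicate 2. At day 26 the list had a median of −0.73. The part of these genes in the differences below was not tested. Matrix, pigment cell and astrocyte genes are described below. In RNA from whole pieces of tissue, fewer cells of a type and less RNA per cell cannot be told apart.

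With library set as a term, 0 of 21124 genes passed an adjusted p under 0.05 (edgeR quasi-likelihood test with Benjamini-Hochberg adjustment, 0% called in either direction). At an unadjusted p under 0.05, 252 genes (1.19%) were higher and 458 (2.17%) lower in DHA. DESeq2 called 31 genes, 4 higher and 27 lower, and limma voom with quality weights called 9, 3 higher and 6 lower. In the deeper libraries 2 of 20111 genes passed, both lower in DHA (0.00994%). With the replicate number as a block 35 genes passed there, all lower (0.174%), the same 2 among them, and 0 passed with the set term. At an unadjusted p under 0.05, without the block, 523 (2.6%) were higher and 1007 (5.01%) lower. The median log2 difference of all genes, DHA minus LA here and below, was 0.03 with the set term and −0.01 in the deeper libraries, and the median 95% interval reached 0.914 and 0.600 log2 units to each side. Both DHA libraries lay above both deeper LA libraries for 22% of genes and below them for 17%, and they lay above all 3 LA libraries for 10% and below all 3 for 8.06%. Both DHA libraries are of the deeper set, so an order against all 3 LA libraries, here and below, also crosses library set. Besides the 2 genes, the 35 held 17 of the genes described below, namely Sema6d, Col3a1, Dcn, Mgp, Tyr, Tyrp1, Pmel, Gja1, Zic1, Aqp4, Ptn, Luzp2, Slc17a6, Ecel1, Adcyap1r1, Fgfr2 and Pla2g7, at adjusted p from 0.0159 to 0.0442 by edgeR with the block. Other differences below are values and not called changes, and adjusted p are without the block unless it is named.

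The 2 genes that fell in the deeper libraries were Rfx4 and Apobec3. Rfx4, which encodes a transcription factor of the regulatory factor X family used in the developing brain (ENSMUSG00000020037, chromosome 10, 84756062 to 84906538 in GRCm38), stood at 0.595 and 0.755 CPM in DHA libraries and 9.24, 8.18 and 2.31 CPM in LA libraries. Its log2 difference was −3.73 [95% interval −4.62, −2.83] in the deeper libraries (edgeR, adjusted p = 0.0226) and −3.18 [95% interval −5.14, −1.21] with the set term (unadjusted p = 0.00323). Both DHA libraries were under all 3 LA libraries, and BSA libraries stood at 0.419, 0.396 and 3.82 CPM. The 2 deeper BSA libraries thus lay with DHA and not with LA. In the shallower set, which holds no DHA library with FGF1, LA (2.31 CPM) lay below BSA (3.82 CPM). Apobec3, which encodes a cytidine deaminase that restricts retroviruses (ENSMUSG00000009585, chromosome 15, 79891659 to 79915906), had 6.15 and 4.99 CPM in DHA libraries and 25.5, 26.2 and 68.8 CPM in LA libraries. Its log2 difference was −2.25 [95% interval −2.83, −1.68] in the deeper libraries (edgeR, adjusted p = 0.0226) and −2.05 [95% interval −3.73, −0.37] with the set term (unadjusted p = 0.0195). The BSA libraries had 4.24, 5.54 and 27.0 CPM of Apobec3. Each gene passed in 6 of 12 alternatives. The call was lost when LA replicate 2, DHA replicate 1 or DHA replicate 2 was left out, when fewer libraries shared the fit and when transcript counts were summed, at adjusted p from 0.0518 to 0.486 for Rfx4 and 0.0535 to 0.486 for Apobec3 by edgeR.

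Sema6d, a transmembrane semaphorin that guides axons (ENSMUSG00000027200, chromosome 2, 124089969 to 124667770), had the smallest p of all genes with the set term. It stood at 14.6 and 11.03 CPM in DHA libraries and 35.2, 57.2 and 31.1 CPM in LA libraries, and at 15.7, 19.7 and 15.5 CPM in BSA libraries. The DHA libraries lay under every LA and BSA library. The log2 difference was −1.79 [95% interval −2.40, −1.17] with the set term (edgeR, adjusted p = 0.192) and −1.89 [95% interval −2.48, −1.29] in the deeper libraries (adjusted p = 0.122, and 0.0392 with the replicate block).

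Genes of rods, and those that rods share with cones, stood higher in DHA. The 18 rod genes had a median log2 difference of 0.56 with the set term and 0.53 in the deeper libraries, and 17 of them were positive in each, with 0 of 18 past the adjusted test. Both DHA libraries lay above both deeper LA libraries for 14 of the 18 (against 22% of all genes) and above all 3 LA libraries for 12 (against 10%). Of 34 shared photoreceptor genes (a 35th symbol, Pcdh21, is an older name of Cdhr1 and had no row), 32 were positive in both models, 24 lay above both deeper LA libraries and 19 above all 3, with medians of 0.48 and 0.47. At an unadjusted p under 0.05, 8 rod genes and 15 shared genes were higher in the deeper libraries, and 0 rod genes and 1 shared gene, Guca1a, which the table also lists on a patch scaffold, were lower. The shares of all genes were 2.6% higher and 5.01% lower. Without DHA replicate 2 the rod median of the deeper libraries was 0.33, against 0.67 without DHA replicate 1. The rod list summed to 10667 and 14721 CPM in DHA libraries and 8116, 9447 and 6511 in LA libraries. In BSA libraries it summed to 8398, 12955 and 7035 CPM, so BSA replicate 2 lay above DHA replicate 1. The shared list summed to 21809 and 24015 CPM in DHA libraries and 15292, 20295 and 15632 in BSA libraries. Its mean log2 level (CPM plus 1) was 7.57 in BSA replicate 2 and 7.56 in DHA replicate 1.

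Ankrd33b, Cdhr1 and Rbp3 were among the 10 higher genes with the smallest p in both models, and the promoters of Rbp3 and Ankrd33b are shown because they hold the core letters bound by Crx and Otx2. The letters searched were TAATCC on both strands, in the 250 bases before the gene start (RefSeq, GRCm38.p6), and capitals mark the match, here read as its reverse complement GGATTA. Rbp3 is at chr14:33953753-33954002 on the plus strand and Ankrd33b at chr15:31367760-31368009 on the minus strand, each written along its own gene's strand.
Rbp3: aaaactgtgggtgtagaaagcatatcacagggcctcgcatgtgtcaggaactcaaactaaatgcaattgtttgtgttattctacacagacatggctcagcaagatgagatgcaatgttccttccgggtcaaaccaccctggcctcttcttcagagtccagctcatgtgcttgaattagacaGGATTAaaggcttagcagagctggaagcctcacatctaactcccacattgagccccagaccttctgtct
Ankrd33b: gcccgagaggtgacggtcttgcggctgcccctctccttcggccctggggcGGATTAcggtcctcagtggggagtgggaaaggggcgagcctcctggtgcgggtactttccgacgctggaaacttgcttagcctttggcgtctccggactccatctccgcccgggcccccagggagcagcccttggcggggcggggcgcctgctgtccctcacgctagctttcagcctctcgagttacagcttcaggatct
These letters occurred before 6 of 13 rod genes and 9 of 25 shared photoreceptor genes that had a RefSeq promoter, and before 7.21% of all genes. The windows of Cdhr1 and Nrl held none. A match is a description of these letters only.

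Rbp3, the retinoid carrier of the matrix between photoreceptors and pigment epithelium, stood at 6921 and 6660 CPM in DHA libraries and 4010, 3618 and 1902 CPM in LA libraries. Every DHA library was above every LA library, and the BSA libraries had 3784, 5234 and 2332 CPM. The log2 difference was 0.84 [95% interval 0.36, 1.32] with the set term (unadjusted p = 0.0017) and 0.79 [95% interval 0.37, 1.21] in the deeper libraries (edgeR, adjusted p = 0.274). Cdhr1, a cadherin at the base of the outer segment, had 1588 and 1749 CPM in DHA libraries, 1055, 931 and 1275 in LA libraries and 1067, 1350 and 1365 in BSA libraries. It differed by 0.72 [95% interval 0.36, 1.08] with the set term and 0.71 [95% interval 0.34, 1.08] in the deeper libraries. Ankrd33b, an ankyrin repeat gene, had 541 and 399.7 CPM in DHA libraries, 281, 238 and 327 in LA libraries and 313, 319.8 and 384 in BSA libraries, with log2 differences of 0.85 and 0.82 in the same 2 models. For all 3 genes both DHA libraries were also above all 3 BSA libraries.

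The fate factors had smaller log2 differences than Rbp3 and Cdhr1 with the set term, and whether they differ from them was not tested. Nrl stood at 828 and 956 CPM in DHA libraries, 575, 513 and 611 in LA libraries and 598, 801 and 660.0 in BSA libraries, and its log2 difference was 0.67 [95% interval 0.20, 1.15] with the set term. Crx, at the levels given above, differed by 0.46 [95% interval 0.15, 0.76], with BSA libraries at 1097, 1125 and 1304 CPM. Otx2 stood at 537 and 536 CPM in DHA libraries, 387, 319 and 411 in LA libraries and 451, 404 and 481 in BSA libraries, a log2 difference of 0.60. Nr2e3, the nuclear receptor that holds rods apart from cones, had 794 and 755 CPM in DHA libraries, 566, 464 and 328 in LA libraries and 752, 724 and 397 in BSA libraries, a log2 difference of 0.55. For these 4 factors both DHA libraries were above all 3 LA libraries.

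Among genes of phototransduction, Pde6b, a subunit of the rod phosphodiesterase, had 863 and 1091 CPM in DHA libraries and 638, 705 and 622 CPM in LA libraries, a log2 difference of 0.54 with the set term. Gucy2e, the retinal guanylate cyclase, had 359.9 and 350.1 CPM in DHA libraries and 246, 253 and 161 CPM in LA libraries, a difference of 0.50. Rcvrn, the recoverin gene, had 254 and 384 CPM in DHA libraries and 176, 181 and 127 CPM in LA libraries, and the DHA replicates lay wide apart. Its interval with the set term reached across 0, at 0.73 [95% interval −0.04, 1.51]. Without DHA replicate 2 the difference in the deeper libraries was 0.48 for Rcvrn, and without DHA replicate 1 it was 1.06.

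**Figure D1:**
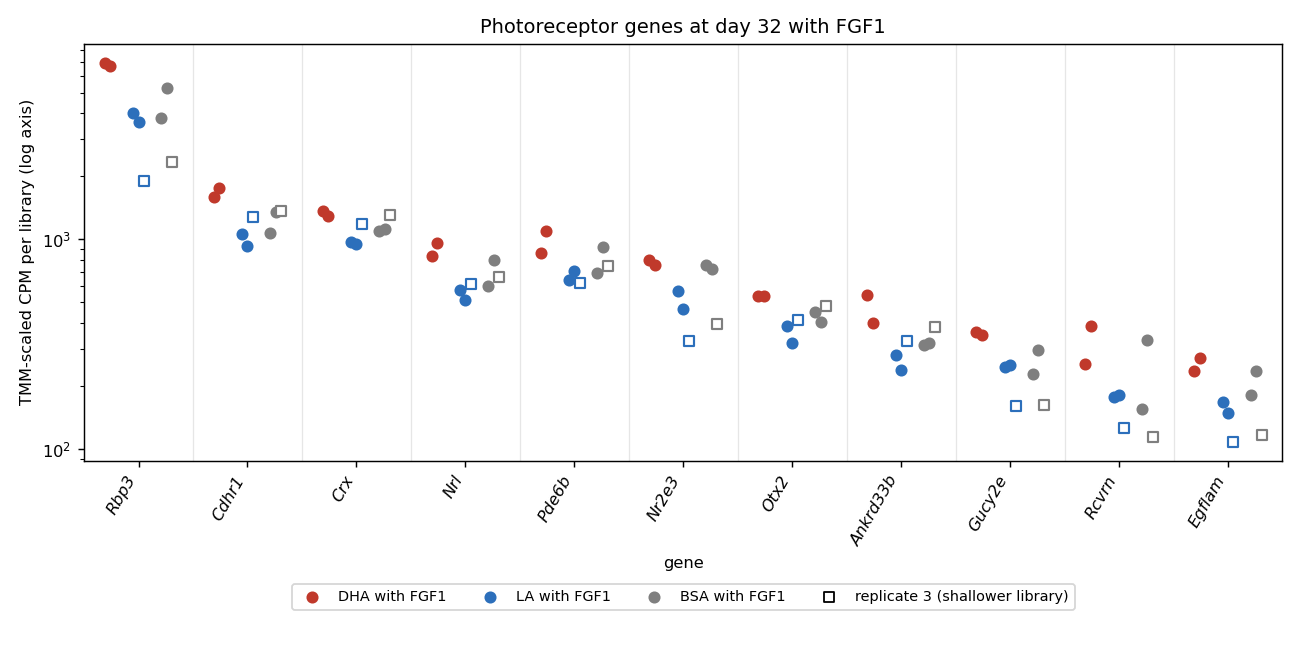
TMM-scaled CPM (log axis) of 11 photoreceptor genes in each library at day 32 with FGF1; red is DHA (2 libraries), blue LA and grey BSA (3 each), and open squares are the shallower replicate 3. Both DHA points lie above the filled LA points for all 11 genes, and Rbp3 in LA replicate 3 lies below the other LA libraries at 1902 CPM.

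Photoreceptor synapse genes leaned the same way, with a median of 0.28 in each model and 18 of 21 positive. Of the 21, 14 lay above both deeper LA libraries (against 22% of all genes). The median of the deeper libraries was 0.13 without DHA replicate 2 and 0.45 without DHA replicate 1. The list summed to 4490 and 5498 CPM in DHA libraries and 3890, 5068 and 3471 in BSA libraries. BSA replicate 2 again lay above DHA replicate 1. Egflam, which encodes pikachurin, an organiser of the synapse between photoreceptors and bipolar cells, had 237 and 272 CPM in DHA libraries, 168, 149 and 109 in LA libraries and 182, 236 and 117 in BSA libraries. The difference was 0.64 [95% interval 0.28, 1.01] in the deeper libraries. Icmt, the methyltransferase that finishes prenylated proteins, was among the 10 higher genes with the smallest p in the deeper libraries, at 604 and 658 CPM in DHA libraries and 384, 418 and 141 CPM in LA libraries. The value of LA replicate 3 was 141 CPM and that of BSA replicate 3 was 177 CPM, so the shallower libraries were low for Icmt in LA and BSA alike.

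Genes of the cone list, not all of them limited to cones, lay on both sides. The 15 cone genes tested had a median of −0.11 with the set term and −0.19 in the deeper libraries, 10 of them negative. Of the 15, 6 lay below and 3 above both deeper LA libraries, against 17% and 22% of all genes. Leaving out 1 library moved the deeper median to −0.13 without LA replicate 1 and −0.61 without LA replicate 2. The median was −0.42 without DHA replicate 1 and −0.44 without DHA replicate 2. Opn1sw, the short-wave cone pigment, had 14.3 and 4.36 CPM in DHA libraries and 22.7, 28.7 and 49.96 CPM in LA libraries, so both DHA libraries were below all LA libraries but lay more than 3-fold apart. The difference was −1.88 [95% interval −3.98, 0.21] with the set term, and BSA libraries stood at 27.9, 16.1 and 7.53 CPM. Pde6c, the cone phosphodiesterase, had 6.1 and 4.41 CPM in DHA libraries and 9.55, 12.4 and 21.7 CPM in LA libraries, at −1.22 [95% interval −2.41, −0.04]. Arr3, the cone arrestin, had 6.15 and 3.08 CPM in DHA libraries and 7.69, 9.02 and 8.47 CPM in LA libraries, at −0.93 [95% interval −2.03, 0.18]. Thrb, the thyroid hormone receptor of cone development, went the other way, with 85.0 and 92.3 CPM in DHA libraries and 69.5, 59.2 and 83.7 CPM in LA libraries, at 0.51 [95% interval 0.11, 0.91].

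At day 26, before FGF1 and the change of medium, the rod, shared photoreceptor and synapse lists had medians on the opposite side. In the deeper libraries the rod list had a median log2 difference of −0.57 at day 26 and 0.53 at day 32 with FGF1, the shared list −0.50 and 0.47, and the synapse list −0.35 and 0.28. The cone list stayed on the lower side, at −0.53 and −0.19. The median of the differences of differences (day 32 with FGF1 minus day 26) was 1.08 for rod genes, 0.88 for shared genes and 0.56 for synapse genes, against −0.01 for all genes. Both DHA libraries were below both LA libraries at day 26 and above both deeper LA libraries at day 32 with FGF1 for 10 of 18 rod, 20 of 34 shared and 8 of 21 synapse genes, against 4.37% of all genes. The opposite order held for 0 genes of these 3 lists, against 1.75% of all genes. The test of the difference of differences passed for 0 of 20111 genes by edgeR (0%), with 1272 genes at an unadjusted p under 0.05 (689 higher, 3.43%, and 583 lower, 2.9%), and limma voom also called 0. DESeq2 called 67 genes, 64 with the larger DHA minus LA difference at day 32. Age, medium and FGF1 all differ between the pairs of groups and cannot be told apart.

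Rbp3 stood at 2361 and 2387 CPM in DHA libraries and 3720 and 3142 CPM in LA libraries at day 26, and its difference of differences was 1.33 [95% interval 0.74, 1.92]. For Nrl the day 26 values were 489.6 and 509 CPM in DHA libraries and 818 and 654 CPM in LA libraries, and the difference of differences was 1.24 [95% interval 0.66, 1.82]. Cdhr1 had 809.8 and 713 CPM in DHA libraries and 1060 and 1075 CPM in LA libraries at day 26, and 1.199 [95% interval 0.68, 1.72]. Egflam had 145 and 129.5 CPM in DHA libraries and 188 and 218 CPM in LA libraries at day 26, and 1.21 [95% interval 0.70, 1.73]. All 4 genes had an unadjusted p between 0.00027 and 0.00058 and an adjusted p of 0.493 for this test by edgeR. Rcvrn was still low at day 26, at 8.49 and 9.00 CPM in DHA libraries and 20.0 and 12.3 CPM in LA libraries, and its difference of differences was 1.69 [95% interval 0.67, 2.70].

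**Figure D2:**
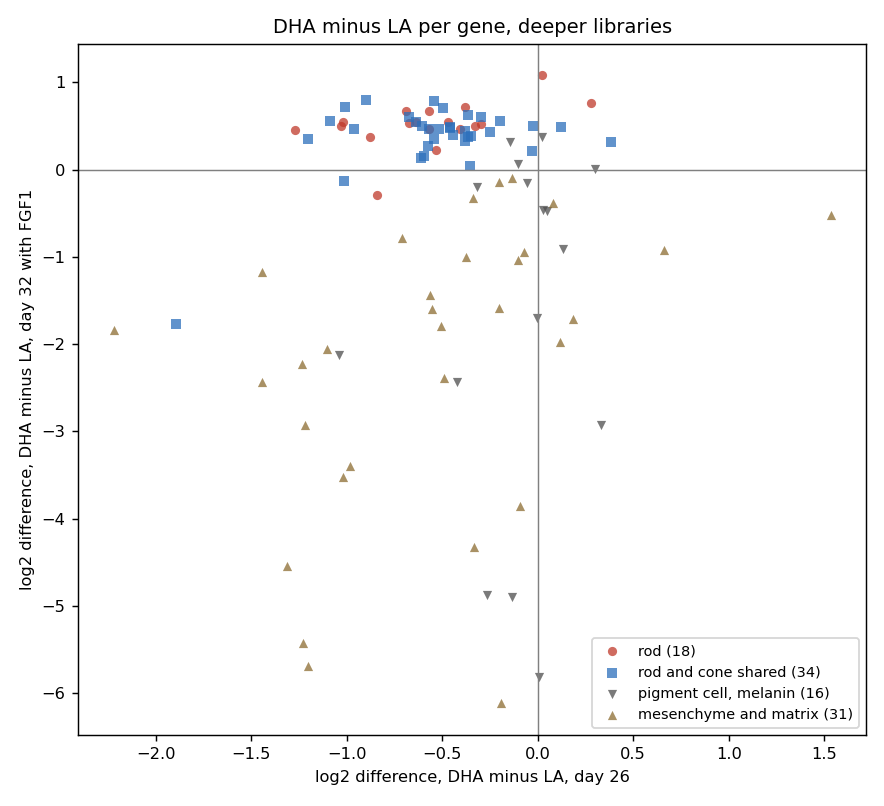
Log2 difference, DHA minus LA, of each gene at day 32 with FGF1 (vertical axis) against day 26 (horizontal axis) in the deeper libraries; red circles are rod genes, blue squares shared photoreceptor genes, grey triangles pigment cell genes and brown triangles mesenchyme and matrix genes, each with 2 DHA and 2 LA libraries a day. Most rod and shared genes lie to the left of 0 and above 0, with medians of −0.57 and 0.53 for rods, while pigment cell genes lie near 0 on the horizontal axis (median −0.03) and reach −5.82 on the vertical axis.

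Of the gene lists, extracellular matrix and fibroblast genes had the lowest median in DHA relative to LA, in both models. Of 34 mesenchyme and matrix genes, 32 passed the count filter with the set term and 31 in the deeper libraries. Their median log2 difference was −1.57 with the set term and −1.80 in the deeper libraries, and 31 of 31 were negative in the deeper libraries, 24 with both DHA libraries below both LA libraries (17% of all genes) and 19 of 32 below all 3 (8.06%). At an unadjusted p under 0.05, 18 of 32 and 22 of 31 were lower (against 2.17% and 5.01% of all genes) and 0 were higher. The adjusted test passed for 0 without the replicate block and for 6, all lower, with it in the deeper libraries (against 0.174% of all genes). LA replicate 1 was the highest LA library for 21 of the 31 genes and LA replicate 3 for 7. Without LA replicate 1 the median in the deeper libraries was −1.11. At day 26, before FGF1, the list already had a median of −0.49, against −0.01 for all genes. The median of its differences of differences was −1.29. The summed level of all 34 genes was 793 and 592 CPM in DHA libraries and 1320, 1016 and 1236 CPM in LA libraries, against 628, 636 and 975 CPM in BSA libraries. In each DHA library 2 genes of the list had no count, against 0, 2 and 2 in LA libraries. Aspn, the matrix protein asporin, was at 0 in both DHA libraries. The part of these cells in the other differences was not tested.

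Col3a1, the fibrillar collagen III chain of loose connective tissue, stood at 2.88 and 2.96 CPM in DHA libraries and 115, 16.6 and 178 CPM in LA libraries. Every DHA library lay under every LA library, while the LA libraries differed more than 10-fold among themselves. The log2 difference was −4.08 [95% interval −6.47, −1.68] with the set term (unadjusted p = 0.00219), and the BSA libraries stood at 4.03, 4.31 and 117 CPM. Dcn, the matrix proteoglycan decorin, had 0.298 and 0.29 CPM in DHA libraries (6 and 5 counts) and 37.1, 3.15 and 18.0 CPM in LA libraries, at −5.53 [95% interval −8.74, −2.32]. Mgp, the matrix Gla protein, had 0.397 and 0.348 CPM in DHA libraries (8 and 6 counts) and 24.5, 7.03 and 5.17 CPM in LA libraries, at −5.18 [95% interval −7.53, −2.83]. Without LA replicate 1 the deeper libraries gave −2.53 for Col3a1, −3.42 for Dcn and −4.24 for Mgp, against −4.54, −6.12 and −5.42 with it. Ptx3, a secreted pentraxin, had 1.29 and 1.45 CPM in DHA libraries and 5.58, 3.99 and 12.8 CPM in LA libraries, at −1.83 [95% interval −2.65, −1.002]. Emp1, an epithelial membrane protein, had 1.34 and 1.51 CPM in DHA libraries and 13.3, 5.09 and 46.4 CPM in LA libraries, at −2.64 [95% interval −4.02, −1.26].

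Basement membrane genes had a median of −0.30 with the set term and −0.51 in the deeper libraries, with 17 of 19 negative and 8 of 19 below both deeper LA libraries (against 17% of all genes). Without LA replicate 1 that median was −0.23. Lama2, a laminin chain, had 2.18 and 1.45 CPM in DHA libraries, 19.7, 5.04 and 12.5 in LA libraries and 1.99, 2.99 and 17.3 in BSA libraries, at −2.39 [95% interval −3.95, −0.84] with the set term and −1.49 in the deeper libraries without LA replicate 1.

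Tyr, Tyrp1 and Pmel of pigment cells were under 1 CPM in both DHA libraries with FGF1. The 16 pigment cell genes tested of 17 had a median of −0.77 with the set term and −0.69 in the deeper libraries, 12 of them negative. Of the 16, 11 lay below both deeper LA libraries (against 17% of all genes) and 9 below all 3 (against 8.06%). At an unadjusted p under 0.05, 5 were lower in each model (against 2.17% of all genes with the set term and 5.01% in the deeper libraries). With the replicate block 3 passed the adjusted test in the deeper libraries (against 0.174% of all genes). The summed level of the list was 291 and 281 CPM in DHA libraries and 392.4, 330.5 and 450.6 CPM in LA libraries. In BSA libraries it was 295.4, 323.3 and 415.9 CPM. In DHA libraries 0 and 1 genes had no count, and in LA libraries 0, 0 and 1. The part of pigment cells in the other differences was not tested. Tyr, the tyrosinase that starts melanin synthesis, is shown with its promoter because the core letters of the melanocyte M-box lie before its start. The letters searched were CATGTG on both strands in the same 250 bases, which also lie inside wider E-box sequences, and Tyr is at chr7:87493513-87493762 on the minus strand, written along the gene's strand (RefSeq, GRCm38.p6), with the match in capitals.
Tyr: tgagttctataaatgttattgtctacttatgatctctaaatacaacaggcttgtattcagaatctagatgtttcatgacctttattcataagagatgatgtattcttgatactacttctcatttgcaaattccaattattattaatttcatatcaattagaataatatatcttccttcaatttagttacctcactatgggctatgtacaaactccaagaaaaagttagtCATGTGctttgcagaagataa
These letters occurred before 7 of 12 pigment cell genes with a RefSeq promoter, among them Tyrp1, and before 13.8% of all genes. A match is again only a description.

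Tyr stood at 0.198 and 0.116 CPM in DHA libraries, which was 4 and 2 counts, and at 7.38, 10.9 and 7.04 CPM in LA libraries. The groups were far apart, with all 3 LA libraries within 2-fold of each other, and the BSA libraries at 2.88, 2.9 and 17.3 CPM. The log2 difference was −5.38 [95% interval −8.23, −2.53] with the set term (unadjusted p = 0.00091) and −5.82 [95% interval −8.20, −3.43] in the deeper libraries (edgeR, adjusted p = 0.178, and 0.0442 with the replicate block). At day 26 the DHA libraries had 6.66 and 11.3 CPM and the LA libraries 14.9 and 2.71 CPM of Tyr, a log2 difference of 0.01, and the difference of differences was −5.82 [95% interval −8.75, −2.90] (unadjusted p = 0.00101, adjusted p = 0.493 by edgeR). Tyrp1, the tyrosinase-related melanosome protein, had 0.447 and 0.697 CPM in DHA libraries (9 and 12 counts) and 20.0, 13.1 and 13.8 CPM in LA libraries, at −4.53 [95% interval −7.29, −1.78]. Pmel, the fibril protein of the melanosome, had 0.645 and 0.697 CPM in DHA libraries, 30.6, 7.76 and 0.99 in LA libraries and 3.77, 1.58 and 5.32 in BSA libraries, at −4.34 [95% interval −7.02, −1.66]. LA replicate 3 was near the DHA libraries for Pmel but not for Tyr or Tyrp1. Dct, the dopachrome tautomerase, had 16.0 and 8.77 CPM in DHA libraries and 48.3, 30.1 and 23.3 CPM in LA libraries, at −1.46 [95% interval −2.65, −0.28].

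Genes of the ciliary margin, the rim between neural retina and pigment epithelium, had medians of −0.49 and −0.65, with 18 of 22 negative. Of the 22, 14 lay below both deeper LA libraries (against 17% of all genes). Gja1, the gap junction protein connexin 43, had 6.55 and 4.01 CPM in DHA libraries, 35.7, 55.0 and 52.5 in LA libraries and 16.7, 6.95 and 60.04 in BSA libraries. The DHA libraries were under every LA and BSA library, and the log2 difference was −2.80 [95% interval −4.46, −1.14]. Zic1, a zinc finger factor of the margin, had 16.0 and 8.42 CPM in DHA libraries and 43.3, 35.7 and 17.7 CPM in LA libraries, at −1.50 [95% interval −2.61, −0.40], and both DHA libraries lay under all 3 LA libraries, LA replicate 3 closest. Among the pigment epithelium genes tested, the median was −0.07 with the set term and −0.17 in the deeper libraries (−0.49 without DHA replicate 1 and −0.26 without LA replicate 1). Serpinf1, a secreted neurotrophic serpin of this list, had 5.21 and 5.69 CPM in DHA libraries and 19.4, 18.1 and 4.18 CPM in LA libraries, with LA replicate 3 below both DHA libraries. The difference was −1.82 [95% interval −2.69, −0.95] in the deeper libraries.

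Ttr, the thyroid hormone carrier made by choroid plexus and pigment epithelium, ranged widely among LA and BSA libraries. It stood at 0.298 and 0.407 CPM in DHA libraries (6 and 7 counts), at 177, 124 and 1.65 CPM in LA libraries and at 127, 1.54 and 7.63 CPM in BSA libraries. The 2 deeper LA libraries and 1 BSA library were over 100 CPM and all other libraries under 10. The log2 difference was −8.36 [95% interval −14.47, −2.25] with the set term. At day 26 the DHA libraries had 26.1 and 34.0 CPM and the LA libraries 188 and 0.301 CPM of Ttr.

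**Figure D3:**
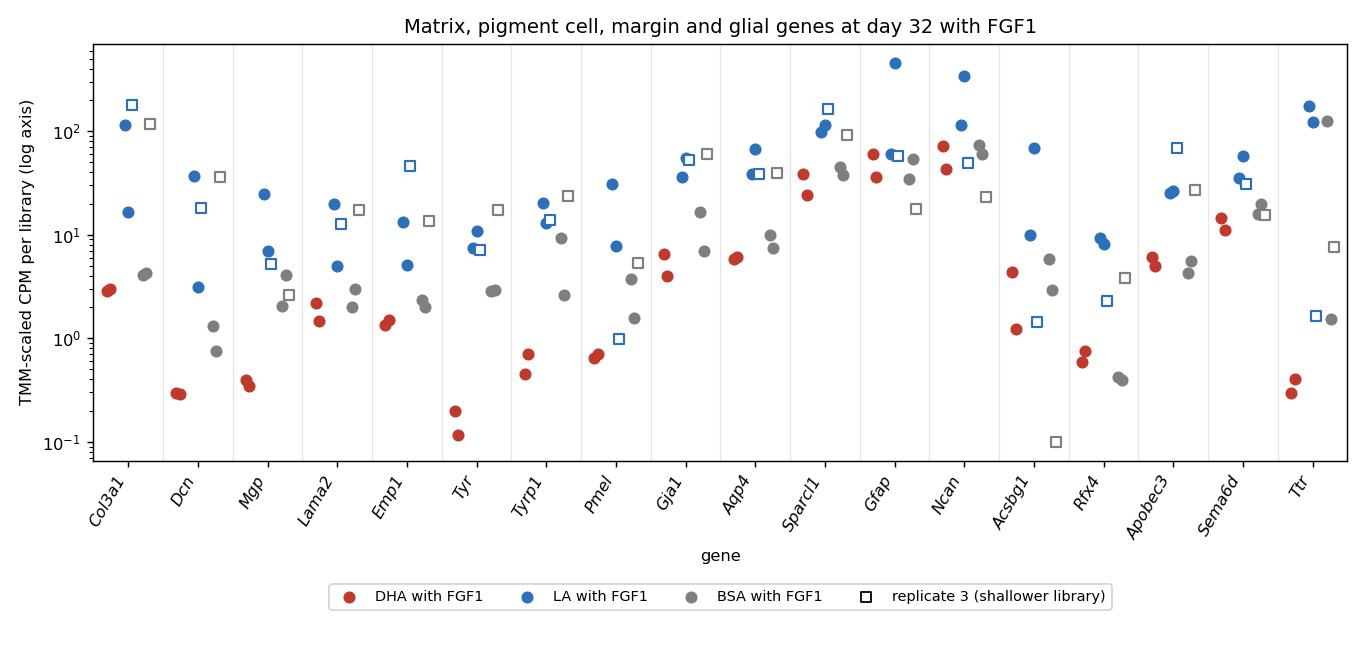
TMM-scaled CPM (log axis) of 18 matrix, pigment cell, margin, glial and other genes in each library at day 32 with FGF1; red is DHA (2 libraries), blue LA and grey BSA (3 each), and open squares are the shallower replicate 3. Tyr is at 0.198 and 0.116 CPM in DHA libraries and between 7.04 and 10.9 CPM in LA libraries, while Gfap, Ncan and Acsbg1 are raised chiefly in LA replicate 2.

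Optic stalk and astrocyte genes were mostly lower in DHA, and LA replicate 2 set most of the distance. The 12 optic stalk and astrocyte genes had medians of −1.33 and −1.54, with 11 of 12 negative in the deeper libraries. Yet only 3 lay below both deeper LA libraries (against 17% of all genes). LA replicate 2 was the highest LA library for 10 of the 12, and without it the median was −0.31. The median also moved to −2.40 without LA replicate 1, −2.87 without DHA replicate 1 and −0.62 without DHA replicate 2. At day 26 the list had a median of −0.35. Their summed level was 607 and 598 CPM in DHA libraries and 486, 1059 and 660 CPM in LA libraries. In BSA libraries it was 449, 479 and 587 CPM, so the DHA sums lay above LA replicate 1 and every BSA library. Slc1a2 of this list, with levels given below, made up most of the sum in both DHA libraries and in LA replicate 1. It was itself higher in DHA than in the deeper LA libraries. The sums therefore say little of the other members. Of the list, 0 and 2 genes had no count in DHA libraries and 0 in each LA library. The part of these cells in the other differences was not tested. Gfap, the astrocyte filament protein that Müller glia also switch on under stress, had 59.6 and 36.2 CPM in DHA libraries and 60.4, 456 and 57.0 CPM in LA libraries, so that only 1 LA library stood out. Olig1, an oligodendrocyte lineage factor, had 2.98 and 0.407 CPM in DHA libraries and 1.96, 33.8 and 2.2 CPM in LA libraries, and its groups overlapped. Without LA replicate 2 the log2 difference in the deeper libraries was −0.38 for Gfap, against −2.46 with it, and −0.24 for Olig1, against −3.41. Ncan, the proteoglycan neurocan, had 72.0 and 43.0 CPM in DHA libraries and 116, 338 and 48.7 CPM in LA libraries, and Acsbg1, an acyl-CoA synthetase of glia and other cells, had 4.32 and 1.22 CPM in DHA libraries and 9.96, 68.6 and 1.43 CPM in LA libraries. Without LA replicate 2 their differences were −1.06 and −1.88, against −2.02 and −3.84.

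Aqp4, Sparcl1, Ptn and Luzp2, in contrast, were lower in both DHA libraries than in every LA library. Aqp4, the water channel of astrocytes and Müller glia, had 5.85 and 6.1 CPM in DHA libraries, 38.4, 67.3 and 38.4 in LA libraries and 10.0, 7.44 and 39.6 in BSA libraries, at −2.79 [95% interval −4.41, −1.17] with the set term and −3.18 [95% interval −4.34, −2.03] in the deeper libraries. Sparcl1, a secreted protein of glia, had 38.7 and 24.2 CPM in DHA libraries and 97.6, 115 and 165 CPM in LA libraries, at −1.67 [95% interval −2.51, −0.83]. Ptn, the growth factor pleiotrophin, had 72.3 and 55.7 CPM in DHA libraries and 181, 159.7 and 139 CPM in LA libraries, and Luzp2, a leucine zipper protein, had 11.1 and 10.7 CPM in DHA libraries and 29.5, 42.3 and 73.2 CPM in LA libraries. Their log2 differences in the deeper libraries were −1.45 [95% interval −1.96, −0.95] and −1.76 [95% interval −2.36, −1.16], with an adjusted p of 0.122 each by edgeR, and 0.0392 each with the replicate block. Of the glutamate transporters, Slc1a2 had 477 and 535 CPM in DHA libraries and 333, 385 and 477 CPM in LA libraries and differed by 0.45 [95% interval 0.04, 0.86] in the deeper libraries. Slc1a3 had 270.4 and 245 CPM in DHA libraries and 241, 509 and 562 CPM in LA libraries, at −0.58 [95% interval −1.20, 0.04]. Müller glia genes had a median of −0.20 with the set term and −0.27 in the deeper libraries. Of the 24, 6 lay below both deeper LA libraries and 0 above, against 17% and 22% of all genes. Without LA replicate 2 the Müller median was −0.00113, and without LA replicate 1 it was −0.49.

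Ganglion cell genes were mostly lower in DHA. The 24 ganglion cell genes had medians of −0.38 and −0.52, with 20 negative. Of the 24, 13 lay below and 1 above both deeper LA libraries, against 17% and 22% of all genes. At an unadjusted p under 0.05, 6 were lower in the deeper libraries (against 5.01% of all genes). Without LA replicate 1 the deeper median was −0.34. Slc17a6, the vesicular glutamate transporter of ganglion cells, had 2.08 and 0.987 CPM in DHA libraries, 7.59, 7.24 and 8.8 in LA libraries and 1.47, 1.63 and 8.73 in BSA libraries. The DHA libraries were under every LA library and lay around the 2 deeper BSA libraries, and the log2 difference was −2.30 [95% interval −3.10, −1.49] in the deeper libraries and −1.95 [95% interval −3.56, −0.34] with the set term. Sncg, a synuclein of ganglion cells, had 2.98 and 1.16 CPM in DHA libraries and 4.59, 5.88 and 1.54 CPM in LA libraries, and LA replicate 3 lay between the 2 DHA libraries. Gap43, a growth cone protein, had 35.5 and 38.6 CPM in DHA libraries and 56.8, 49.0 and 72.3 CPM in LA libraries, at −0.46 [95% interval −0.93, 0.01].

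Ecel1, an endothelin-converting enzyme-like peptidase of neurons, had 0.198 and 0.232 CPM in DHA libraries (4 and 4 counts) and 2.79, 3.15 and 0.22 CPM in LA libraries. LA replicate 3 lay with the DHA libraries, and the deeper libraries gave −3.79 [95% interval −5.10, −2.48]. Adcyap1r1, the receptor of the peptide PACAP, had 12.4 and 7.84 CPM in DHA libraries and 31.1, 40.6 and 7.81 CPM in LA libraries, again with LA replicate 3 at the DHA level, and the deeper libraries gave −1.86 [95% interval −2.48, −1.24]. Amacrine genes had a median of −0.42 in the deeper libraries, which was −0.0887 without LA replicate 1, −0.69 without DHA replicate 1 and −0.23 without DHA replicate 2. Bipolar genes had a median of 0.10, which was 0.19 without LA replicate 1 and 0.17 without DHA replicate 1.

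Growth factor genes lay mostly on the lower side. FGF ligands and receptors had medians of −0.45 and −0.54, with 12 of 17 negative and 9 below both deeper LA libraries (against 17% of all genes). The deeper median was −0.32 without LA replicate 1 and −0.36 without DHA replicate 2. Fgfr2, an FGF receptor used in pigment epithelium and glia, had 1.59 and 1.28 CPM in DHA libraries, 12.1, 9.97 and 8.47 in LA libraries and 4.4, 2.07 and 11.1 in BSA libraries, at −2.63 [95% interval −4.04, −1.23]. Every DHA library was under every LA and BSA library. The organoids' own Fgf1 transcript had 2.43 and 3.6 CPM in DHA libraries and 12.0, 12.2 and 6.16 CPM in LA libraries, at −1.80 [95% interval −3.27, −0.34].

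The 20 feedback genes of FGF and ERK signalling had medians of −0.03 and −0.06, from −0.23 to 0.11 in the deeper libraries with 1 library left out. Of the 20, 1 was above and 2 were below both deeper LA libraries, against 22% and 17% of all genes. Dusp6, a phosphatase that switches ERK off, had 53.9 and 75.3 CPM in DHA libraries, 54.9, 75.8 and 65.7 in LA libraries and 57.0, 86.2 and 68.1 in BSA libraries. The difference was −0.03 [95% interval −0.59, 0.53] with the set term. Spry2, a Sprouty inhibitor of the pathway, had 66.4 and 57.2 CPM in DHA libraries and 48.3, 63.3 and 39.6 CPM in LA libraries, at 0.15 [95% interval −0.44, 0.73]. Etv5, an ETS factor downstream of ERK, had 65.3 and 54.5 CPM in DHA libraries and 51.1, 67.6 and 49.3 CPM in LA libraries, at 0.12 [95% interval −0.38, 0.63]. The signs of all 3 changed between alternatives.

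BMP and TGF-beta genes had medians of −0.59 and −0.74, with 23 of 27 negative and 10 below both deeper LA libraries (against 17% of all genes). Without LA replicate 1 that median was −0.30 and without DHA replicate 2 it was −0.28. Bmp2, a ligand, had 0.695 and 0.348 CPM in DHA libraries, 2.48, 1.57 and 2.2 in LA libraries and 1.94, 1.41 and 2.71 in BSA libraries, at −1.84 [95% interval −2.81, −0.87]. Id3, a target that BMP signals induce, had 15.0 and 6.85 CPM in DHA libraries and 22.4, 35.4 and 3.3 CPM in LA libraries, and LA replicate 3 and BSA replicate 3 (1.91 CPM) were both low. Wnt genes had medians of −0.52 and −0.46, with 25 of 30 negative and 13 below both deeper LA libraries (against 17% of all genes). Their deeper median was −0.82 without DHA replicate 1 and −0.36 without LA replicate 1. The secreted inhibitor Sfrp1 had 9.08 and 6.79 CPM in DHA libraries and 16.0, 17.8 and 29.7 CPM in LA libraries, at −0.96 [95% interval −1.66, −0.25], and the ligand Wnt5a had 5.61 and 4.12 CPM in DHA libraries and 11.9, 7.29 and 14.5 CPM in LA libraries, at −0.82 [95% interval −1.52, −0.12].

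The medians of the lipid gene lists stayed close to the median of all genes, although the media differed in a fatty acid. The median log2 difference in the deeper libraries was 0.02 for 19 desaturases and elongases, 0.07 for 16 genes of fatty acid synthesis, 0.04 for 26 of cholesterol synthesis, −0.01 for 26 of DHA uptake and phospholipids, −0.03 for 16 of eicosanoids and −0.10 for 30 PPAR and fatty acid oxidation genes. Of the 30 PPAR and oxidation genes, 7 were lower and 0 higher at an unadjusted p under 0.05 in the deeper libraries by edgeR. The shares of all genes were 5.01% and 2.6%. Of the same 30, 11 lay below and 5 above both deeper LA libraries, against 17% and 22% of all genes. Single members of the lipid lists lay on either side. Elovl4, the elongase of very long fatty acids in photoreceptors, had 253 and 263 CPM in DHA libraries and 184, 142 and 497 CPM in LA libraries. LA replicate 3 and BSA replicate 3, at 569 CPM, were above both DHA libraries and the deeper LA libraries for Elovl4, and the difference was 0.65 [95% interval 0.16, 1.13] with the set term but −0.0888 without it. Elovl2, which extends the precursors of DHA, had 169.7 and 164 CPM in DHA libraries and 134, 110.3 and 196 CPM in LA libraries, at 0.46 [95% interval 0.11, 0.81]. Acsl1, an acyl-CoA synthetase, had 178 and 224 CPM in DHA libraries, 125, 127 and 133 in LA libraries and 139.6, 166 and 149 in BSA libraries, above every LA and BSA library in both DHA libraries, at 0.65 [95% interval 0.25, 1.06]. Adipor1, a receptor needed to hold DHA in the mouse retina, had 160.3 and 153 CPM in DHA libraries and 119, 115 and 90.2 CPM in LA libraries, at 0.44 [95% interval 0.10, 0.79].

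Scd1, the stearoyl-CoA desaturase, was lower in DHA than in LA libraries, at 52.4 and 72.0 CPM in DHA libraries and 78.4, 104 and 158 CPM in LA libraries, with a log2 difference of −0.57 [95% interval −1.06, −0.08]. BSA libraries, at 46.7, 78.6 and 98.2 CPM, lay on both sides. Pla2g7, which degrades oxidised phospholipids and platelet-activating factor, had 51.7 and 59.0 CPM in DHA libraries and 109.6, 112 and 159 CPM in LA libraries, at −0.89 [95% interval −1.46, −0.31]. Pla2g4a, the cytosolic phospholipase A2 that frees arachidonic acid, had 2.78 and 3.19 CPM in DHA libraries and 7.9, 6.29 and 17.9 CPM in LA libraries at day 32, at −1.29 [95% interval −2.48, −0.11], but 8.28 and 5.95 CPM in DHA libraries and 2.48 and 3.36 CPM in LA libraries at day 26. Its difference of differences was −2.57 [95% interval −3.84, −1.30] (unadjusted p = 0.00086, adjusted p = 0.493 by edgeR).

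Of the PPAR targets, Pdk4 and Angptl4 were weakly expressed. Pdk4, which curbs pyruvate oxidation, had 0.397 and 0.29 CPM in DHA libraries (8 and 5 counts) and 0.826, 1.1 and 1.54 CPM in LA libraries, at −1.49 [95% interval −2.66, −0.32]. Angptl4, an inhibitor of lipoprotein lipase, had 0.397 and 0.232 CPM in DHA libraries (8 and 4 counts) and 0.619, 0.892 and 0.88 CPM in LA libraries, at −1.23 [95% interval −2.86, 0.40]. Cpt1a, the gate of mitochondrial fatty acid oxidation, had 127 and 208 CPM in DHA libraries and 100.4, 132 and 82.1 CPM in LA libraries, at 0.52 [95% interval −0.07, 1.11]. The lipid droplet coat gene Plin2 differed by −0.11 [95% interval −0.95, 0.73], the desaturase genes Fads1 and Fads2 by 0.19 [95% interval −0.13, 0.51] and 0.19 [95% interval −1.18, 1.56], and Hmgcs1 of cholesterol synthesis by 0.05 [95% interval −0.41, 0.52]. For Fads2, DHA libraries had 142 and 159 CPM and LA libraries 128, 149 and 27.0 CPM, LA replicate 3 far below the rest, and the deeper libraries gave 0.08 [95% interval −0.32, 0.49].

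**Figure D4:**
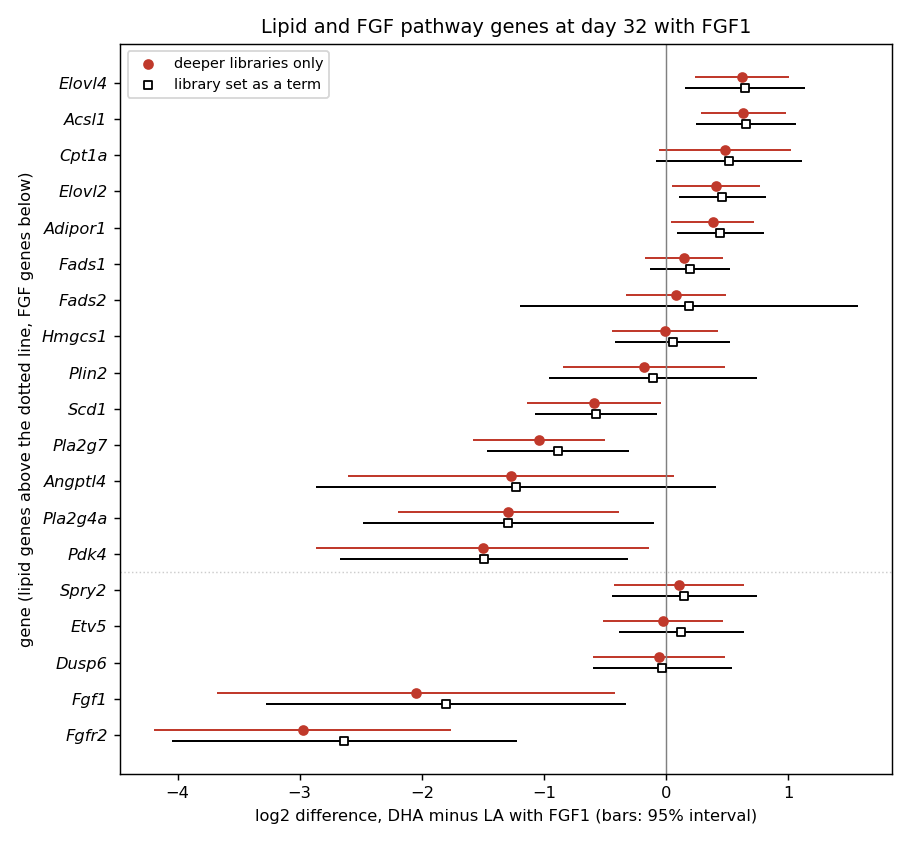
Log2 difference, DHA minus LA at day 32 with FGF1, with 95% intervals, of 14 lipid genes and, under the dotted line, 5 FGF pathway genes; red circles are the deeper libraries (2 DHA against 2 LA) and open squares the model with library set as a term (2 against 3). Spry2, Etv5 and Dusp6 lie within 0.15 of 0 in both models, while Fgfr2 lies at −2.98 and −2.63.

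One higher gene rested on 1 library. Olfr1178, an olfactory receptor gene, had 1.04 and 30.1 CPM in DHA libraries and 1.45, 1.05 and 1.1 CPM in LA libraries, so DHA replicate 1 was below LA replicate 1, and without DHA replicate 2 the log2 difference was −0.200 with the set term, against 3.69 with it.

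**Figure D5:**
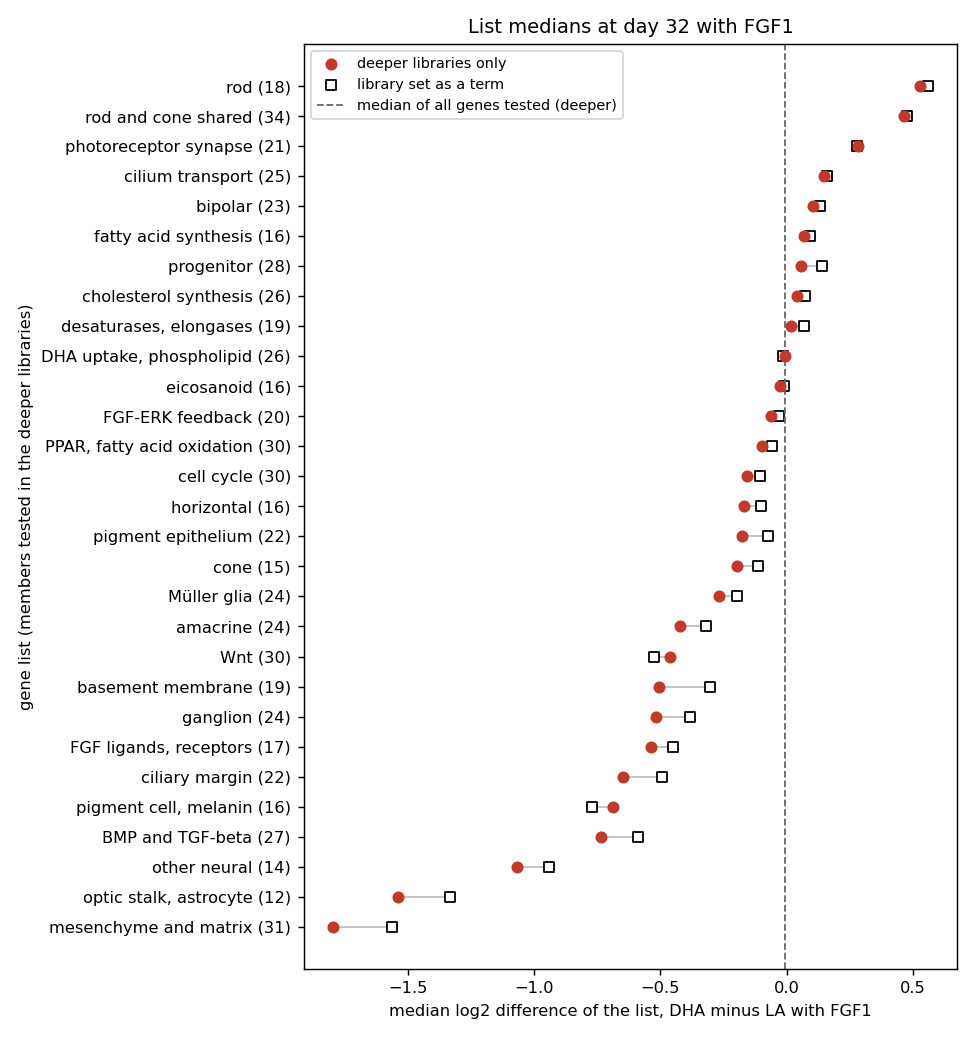
Median log2 difference, DHA minus LA at day 32 with FGF1, of 29 gene lists, ordered from the highest at the top; red circles are the deeper libraries, open squares the model with library set as a term, and the dashed line is the median of all genes in the deeper libraries (−0.01). Rod genes are at 0.53 and mesenchyme and matrix genes at −1.80, and both models put these lists on the same side.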

How the data were processed

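RNA sequencing of directional poly(A) libraries was deposited for 23 libraries. The build was GRCm38.p6 and the tools were kallisto 0.45.0, Trimmomatic 0.36 and edgeR, as the submitters' processing notes name them. Expected counts per gene and per transcript were deposited by the authors. They also deposited normalized CPM (read as signal) for 18 of the libraries.

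For each gene the expected count was rounded, low genes were removed by filterByExpr, and the rest were scaled by TMM and fitted with the quasi-likelihood model of edgeR 4.0.16, with adjustment by Benjamini-Hochberg over all genes tested. The set-term model used all 23 libraries (9 groups and library set, 13 residual degrees of freedom), and the deeper-library model used 12 libraries without a covariate (6 residual degrees of freedom). Library set was read from the largest gap in the column totals, with 12 deeper and 11 shallower libraries. Intervals (95%) were derived from the F statistic and are approximate. CPM were scaled by TMM over all 23 libraries. Pairs of replicates differed beyond counting noise (chi-square per degree of freedom from 16.7 to 260), so none were merged. Same-numbered libraries of the 3 day 32 groups with FGF1 deviated together in the deeper set, with correlations over genes of 0.156 (DHA and LA), 0.346 (DHA and BSA) and 0.223 (LA and BSA). Only 2 numbers are shared, and the labels do not say what a number marks, so the block is given beside the counts. P-values set a mean difference against the spread between replicates over all groups of the fit, not that of the DHA and LA groups alone.

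The comparison, the 45 gene lists and the rule for naming genes were chosen with earlier results of these data known. Of the list entries, 923 were tested, 78 were under the count filter and 8 symbols had no row. The rule named the 10 genes with the smallest p per direction in each model (average log2 CPM of at least 1), up to 4 members per list, and a fixed set of retinal, lipid and FGF genes. Alternatives were DESeq2 1.42.0, limma 3.58.1 voom with quality weights, RLE size factors, no filter, a replicate block, library set omitted or with 3 levels, fewer libraries, limma on the authors' normalized CPM (pseudocount 1), leaving out each library and, added after the data were seen, transcript counts summed per gene. R 4.3.3, Python 3.11.15 and matplotlib 3.10.9 were used. Some genes are not reported here.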

Additional observations from a re-analysis of the deposited data

Results flagged for a closer look

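For 19 of the 72 named genes both DHA libraries lay on one side of both deeper LA libraries at day 32 with FGF1 and on the other side at day 26. None passed the adjusted test of the difference of differences by edgeR (0 of 20111 genes), and the values are log2 differences at day 32 minus those at day 26. Photoreceptor genes were higher at day 32 and lower at day 26: Rcvrn 1.69, Rbp3 1.33, Nrl 1.24, Egflam 1.21, Cdhr1 1.199, Ankrd33b 1.13, Gucy2e 1.04, Nr2e3 1.01, Thrb 0.88, Pde6b 0.83 and Crx 0.68. Icmt (0.99) and the lipid genes Elovl2 (0.84), Acsl1 (0.83), Elovl4 (0.80) and Fads1 (0.32) had the same order. Ecel1 (−4.54), Pla2g4a (−2.57) and Zic1 (−2.06) had the opposite order. The first order held for 4.37% of all genes and the second for 1.75%. Many named genes were chosen by their p at day 32, so their separation there was partly set by that choice. These shares are therefore not a like measure for them. Both DHA libraries lay above both deeper LA libraries at day 32 for 4418 of all genes, of which 878 had the first order. They lay below for 3409, of which 352 had the opposite order.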

How the results depend on the processing

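The counts of called genes depended on the test. With library set as a term the count was 0, and it was 31 with DESeq2, 9 with limma voom, 149 with no filter on low counts, 1 (Ttr, lower) with the 5 libraries of the comparison alone and 2 (Rfx4 and Aspg, lower) with limma on the authors' normalized CPM, and 0 when any 1 library was left out. In the deeper libraries the count was 2, and it was 149 with DESeq2, 528 with no filter, 35, all lower, with a replicate block, 1 (Ttr) with the 4 libraries alone, 0 with the 6 deeper libraries of day 32, 0 with transcript counts summed per gene, and from 0 to 26 when 1 library was left out (26, all lower, without LA replicate 1, 1 each without LA replicate 2 and without DHA replicate 1, 0 without DHA replicate 2). The difference of differences gave 0 genes, 67 with DESeq2, 332 with no filter, and 0 to 1 with 1 library left out. The replicate block gave 0 genes with the set term and 0 for the difference of differences.

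Of 72 named genes, 66 kept their sign under all alternatives with the set term and 64 in the deeper libraries. With the set term, leaving out 1 library gave −0.364 to 0.101 for Plin2, −0.00931 to 0.137 for Hmgcs1, −0.291 to 0.187 for Dusp6, −0.0162 to 0.366 for Etv5 and −0.200 to 4.64 for Olfr1178. Other settings turned the sign of Elovl4 (−0.0888) and Hmgcs1 (−0.479) without the set term, of Hmgcs1 (−0.00582) and Etv5 (−0.0260) with the 5 libraries alone, and of Dusp6 (0.000800) with summed transcripts. In the deeper libraries, leaving out 1 library gave −1.01 to 0.0454 for Slc1a3, −0.433 to 0.0468 for Plin2, −0.0120 to 0.189 for Fads2, −0.107 to 0.101 for Hmgcs1, −0.305 to 0.182 for Dusp6, −0.0636 to 0.305 for Spry2, −0.204 to 0.181 for Etv5 and −0.283 to 4.54 for Olfr1178. Summed transcripts turned Etv5 (0.0187) and Olfr1178 (−0.0488), and no filter turned Hmgcs1 (0.0027). The medians of the rod, shared photoreceptor, synapse, matrix, pigment cell, margin, optic stalk and ganglion lists kept their sign under every alternative run, while those of Müller glia, FGF feedback and the 6 lipid lists did not in at least 1 model. The cause of these shifts was not tested.

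With 2 DHA libraries, the median 95% interval in the deeper libraries reached 0.600 log2 units to each side, less for genes that agreed between replicates and more for genes with few counts. Tyr, Dcn, Mgp, Ttr and Ecel1 rest on fewer than 10 counts in each DHA library, and counting error there is large.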
